A study of Homo sapiens with 10 samples.

Results

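The genes described here are 38 genes of the Fanconi anemia (FA) pathway, of homologous recombination and of the DNA damage checkpoint, taken from a list of names, out of 61533 genes in the count tables; the list uses no measured value as a criterion but was drawn up with earlier results of these data known. All 38 were found by symbol and all 38 passed the filter on low counts, which left 16181 genes for testing. The question was how far the transcripts of interstrand crosslink repair differ between a cisplatin-sensitive bladder cancer line and a resistant line made from it.

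T24 is a cell line from a human bladder cancer, and T24R2 was derived from it by repeated exposure to cisplatin; RNA was sequenced on day 3 in 5 replicate libraries of either line. The labels give the same medium for both lines, RPMI with fetal bovine serum and penicillin/streptomycin, and name no drug, whereas the methods of the study describe T24R2 as maintained in cisplatin, so that line and drug exposure cannot be told apart. T24R2 is 1 derived line, so that resistance and any other change acquired during its derivation cannot be told apart either. Nothing in the labels says that the replicates were separate cultures, and p-values then measure only the spread between these libraries, which may be technical.

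Among the lesions that cisplatin makes are interstrand crosslinks, which join the strands of DNA and stop replication forks. In the FA pathway a core complex of many subunits, working with the ubiquitin-conjugating enzyme UBE2T, attaches ubiquitin to FANCD2 and FANCI, and the modified pair recruits nucleases that cut the crosslink out of 1 strand. The double-strand break that results is repaired by homologous recombination, in which BRCA1, PALB2 and BRCA2 prepare the broken end for strand exchange and the kinases ATM, ATR, CHEK1 and CHEK2 hold the cell cycle. SLFN11 is a helicase-like protein that blocks stressed replication forks and is known for sensitizing cells to DNA-damaging drugs.

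Many genes of this group are known to be transcribed with the cell cycle, so promoter windows from RefSeq (GRCh38.p14, 250 bases before to 50 bases after each gene start) were searched on both strands for letters linked to that program. A window was given for 35 of the 38 genes, and none for FANCI, RAD54B or NBN. The E2F letters searched were TTTGGCGC, TTTCCCGC, TTTGGCGG and TTTCGCGC, and the CHR letters, of an element read by cell cycle repressor complexes, were TTTGAA and TTCGAA. E2F letters were present in FANCC, FANCD2 and XRCC2, which is 8.57% of the 35 genes, against 4.04% of 27058 genes with a window. CHR letters were present in FANCC, UBE2T, BRIP1 and ATM (11.4% against 19.6% of all genes), and CCAAT, which overlapped none of the matches printed here, in 17 of the 35 (48.6% against 39.8%). FANCC and XRCC2 were higher in T24R2, UBE2T and ATM were lower, and FANCD2 was not called, so genes of both directions are shown. The stretches that hold the matches follow, written along the strand of the gene, with the matched letters or their reverse complement in capitals. On the given strand only, E2F letters were in 2.86% of the 35 genes and 2.29% of all genes. The FANCC stretch has 2 E2F matches, and a match is a description of the letters only.
FANCC, chr9:95317720-95317899, minus strand: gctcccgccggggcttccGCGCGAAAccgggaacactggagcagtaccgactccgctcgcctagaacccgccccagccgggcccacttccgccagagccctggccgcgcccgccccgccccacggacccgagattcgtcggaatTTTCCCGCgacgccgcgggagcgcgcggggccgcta
XRCC2, chr7:152676102-152676131, minus strand: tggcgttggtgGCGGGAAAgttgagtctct
FANCD2, chr3:10026422-10026451, plus strand: ggcgtcgggcctgGCGGGAAAgtcgaaaac
UBE2T, chr1:202342072-202342101, minus strand: cgcgcgctctcaTTTGAAtgcgtgagcgtt
ATM, chr11:108223034-108223063, plus strand: cagtcacgcagggTTTGAAccggaagcggg

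Each T24 library held between 9257843 and 10247941 counts and each T24R2 library between 9591379 and 10840954. The keratins KRT7, KRT8 and KRT18 were abundant in both lines, though lower in T24R2. The urothelial markers UPK1B, UPK3A and KRT20 and the epithelial cadherin CDH1 never exceeded 3 counts in a library. Of 18 urothelial and epithelial markers, 11 reached a mean of 1 CPM (counts scaled to library size) in T24 and 6 in T24R2. The summed level of the 18 was 5100 to 5815 CPM in T24 and 3029 to 3233 CPM in T24R2. All 11 markers that passed the filter on low counts were lower in T24R2 by the rule given below, against 26.5% of all tested genes. KRT19 fell most, from a mean of 267 to 0.09 CPM. The 13 markers of other cell types summed to 231 to 283 CPM in T24, nearly all of it from the endothelial cadherin CDH5, and to 5.11 to 7.198 CPM in T24R2, and their part in the results was not tested. In bulk RNA, fewer cells of a type and less RNA per cell cannot be told apart.

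T24R2 had lower transcript levels than T24 for 14 of the 38 genes and higher levels for 4, and the remaining 20 were not called. A gene was called at an adjusted p under 0.05 by edgeR's quasi-likelihood test with an absolute log2 fold change over 0.5. The lines differ widely, and the same rule called 51.4% of all tested genes, with 26.5% lower and 24.9% higher. Against these shares, 47.4% of the 38 genes were called, 36.8% lower and 10.5% higher. The median log2 fold change was -0.11 over the 38 genes and 0.01 over all tested genes. Without scaling for library composition the median of all genes moved to 0.18 and that of the 38 genes to 0.05, so that the sign of the members' median turned while it stayed below that of all genes, and the calls changed to 7 higher and 10 lower among the 38 and to 5206 higher and 3431 lower among all genes, from 4027 and 4282. Under upper-quartile scaling 5 of the 38 were higher and 10 lower. The libraries of the lines did not overlap for 24 of the 38 genes, against 61.2% of all tested genes. Of these 24 genes, 16 were lower and 8 higher in T24R2, against 31.3% lower and 29.9% higher over all tested genes. With no minimum on the fold change, 29 of the 38 genes had an adjusted p under 0.05, against 75.5% of all tested genes.

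**Figure D1:**
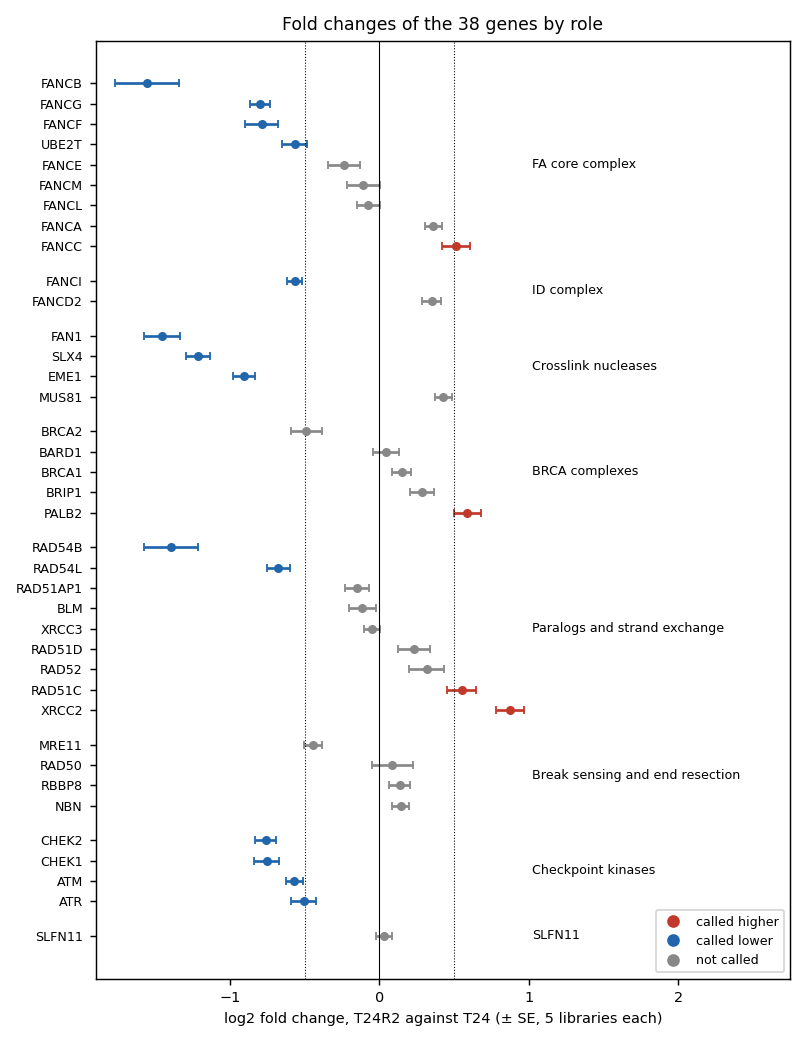
Log2 fold change of each of the 38 genes, T24R2 against T24, with its standard error from the edgeR fit to 5 libraries per line, grouped by role. Dotted lines mark the fold change minimum of 0.5 in either direction. Blue points are the 14 genes called lower, red points the 4 called higher and grey points the 20 not called. The 4 checkpoint kinases all lie on the lower side, and 26.5% of all tested genes were called lower.

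All 4 checkpoint kinases were called lower in T24R2, at 59.0% to 70.3% of their T24 mean, against 26.5% of all tested genes called lower. ATM, which responds to double-strand breaks, had 145, 119.5, 150.1, 156 and 136 CPM in the T24 libraries and 92.4, 100.1, 92.0, 97.6 and 93.2 CPM in T24R2. The lowest T24 library of ATM was above the highest T24R2 library, and the log2 fold change was -0.57 (SE 0.06, adjusted p = 7.7e-12, edgeR). ATR, which responds to stalled forks, had 36.2, 36.7, 43.5, 43.7 and 38.2 CPM in T24 and 22.4, 27.6, 29.8, 29.6 and 30.2 CPM in T24R2. ATR lay closest to the fold change minimum at -0.51 (SE 0.08, adjusted p = 8.3e-07, edgeR) and fell under it without T24 replicate 3 (-0.48) or 4 (-0.48) or T24R2 replicate 1 (-0.43) or 2 (-0.497), so that the call of ATR depended on single libraries although its libraries did not overlap between the lines. Without scaling the values of ATM and ATR were -0.41 and -0.34 and under upper-quartile scaling -0.496 and -0.43, all under the fold change minimum and with the same sign.

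CHEK1, the effector kinase downstream of ATR, had 56.8, 62.4, 51.9, 43.6 and 62.0 CPM in T24 and 28.8, 36.8, 33.9, 30.1 and 34.2 CPM in T24R2. The log2 fold change of CHEK1 was -0.76 (SE 0.08, adjusted p = 1.1e-10, edgeR), and its libraries did not overlap. CHEK2, the effector kinase downstream of ATM, had 46.5, 40.4, 44.8, 45.7 and 46.3 CPM in T24 and 25.9, 26.4, 27.3, 25.2 and 27.1 CPM in T24R2. The T24R2 libraries of CHEK2 were at 59.0% ± 1.92 (SD, n = 5) of the T24 mean, and the log2 fold change was -0.76 (SE 0.07, adjusted p = 2.3e-12, edgeR). CHEK1 and CHEK2 were called under every scaling and without each library in turn. CHEK2 has pseudogene copies in the genome, and since the authors kept uniquely mapped reads, reads shared with a copy are missing from its counts in both lines.

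Of the 4 crosslink nucleases 3 fell, and the median log2 fold change of the 4 was -1.06. FAN1, a nuclease recruited by ubiquitinated FANCD2, had 17.3, 16.8, 20, 19.7 and 16.6 CPM in T24 and 7.52, 5.72, 7.198, 6.33 and 6.195 CPM in T24R2, a log2 fold change of -1.46 (SE 0.12, adjusted p = 8.2e-14, edgeR). SLX4, the scaffold that holds several structure-selective nucleases, had 44.1, 46.0, 40.5, 41.6 and 50.2 CPM in T24 and 20.6, 20.6, 18.2, 18.6 and 17.8 CPM in T24R2, a log2 fold change of -1.21 (SE 0.08, adjusted p = 7.8e-17, edgeR). Every T24R2 library of both genes was under every T24 library. EME1, the partner that MUS81 needs to cut branched DNA, had 63.6, 58.5, 67.3, 62.7 and 62.3 CPM in T24 and 37.3, 36.8, 28.1, 32.5 and 32.7 CPM in T24R2, at -0.91 (SE 0.07, adjusted p = 1e-14, edgeR). MUS81 itself went the other way, with 56.2 to 61.9 CPM in T24 and 75.2 to 88.7 CPM in T24R2 and no overlap, but at 0.43 (SE 0.06) it stayed under the fold change minimum of 0.5. MUS81 was called higher at 0.59 without scaling and at 0.502 under upper-quartile scaling.

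Within each library the ratio of EME1 to MUS81, both as FPKM (CPM divided by the exon length in kilobases), had a median of 1.74 in T24 (1.70 to 1.83) and of 0.72 in T24R2 (0.58 to 0.78), and a ratio within a library does not depend on the scaling. Exons of other genes on the opposite strand cover 16.4% of the EME1 exon bases (LRRC59) and 13.9% of those of MUS81 (CFL1, a highly expressed actin regulator). Where the kit does not mark strand, reads of overlapped exons cannot be told apart from those of the opposite gene; LRRC59 had a mean of 2437 counts per library against 474 for EME1, and CFL1 12280 against 707 for MUS81. FAN1 shares 8.96% of its exon bases with MTMR10, which fell with it at -2.27.

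The FA core complex held 4 genes that fell, 1 that rose and 4 that were not called. FANCB, a subunit of the catalytic part of the complex, had 5.29, 7.79, 8.57, 7.42 and 10.3 CPM in T24 and 2.11, 3.12, 1.44, 4.01 and 2.56 CPM in T24R2. It had the most negative log2 fold change of the 38 genes at -1.56 and the widest error (SE 0.21, adjusted p = 2.4e-08, edgeR), with only 15 to 45 counts per T24R2 library. FANCG, an adaptor of the core complex, had 53.4, 58.8, 61.7, 60.02 and 62.2 CPM in T24 and 33.8, 35.0, 34.2, 34.2 and 32.9 CPM in T24R2. The log2 fold change of FANCG was -0.80 (SE 0.06, adjusted p = 3.4e-14, edgeR), and its T24R2 libraries had the smallest coefficient of variation of the 38 genes, 2.23%.

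FANCF, another adaptor, had 24.9, 22.5, 20.1, 17.5 and 20.5 CPM in T24 and 11.9, 12.1, 14.5, 12.6 and 10.0 CPM in T24R2 (log2 fold change -0.79, SE 0.11, adjusted p = 3.9e-08, edgeR). UBE2T, the conjugating enzyme of the pathway, had 42.7, 47.7, 41.4, 41.6 and 43.4 CPM in T24 and 30.7, 31.0, 30.7, 32.2 and 21.4 CPM in T24R2 (log2 fold change -0.57, SE 0.08, adjusted p = 1.1e-07, edgeR). Both genes had no overlap between the lines, but UBE2T was under the fold change minimum without T24R2 replicate 5 (-0.47), without scaling (-0.40) and under upper-quartile scaling (-0.49). FANCC, a core complex subunit, was the riser of the group, with 19.8, 21.2, 14.6, 19.4 and 19.4 CPM in T24 and 25.3, 30.2, 25.2, 25.7 and 28.7 CPM in T24R2. FANCC reached a log2 fold change of 0.51 (SE 0.09, adjusted p = 6.5e-06, edgeR) and was under the minimum without T24 replicate 3 (0.43) or T24R2 replicate 2 (0.48) or 5 (0.498).

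The core genes that were not called include the ubiquitin ligase FANCL at -0.07, the translocase FANCM at -0.11, FANCE at -0.24 and FANCA at 0.36. FANCA, a large subunit of the complex, did not overlap between the lines (84.0 to 106 CPM in T24 and 118 to 134 CPM in T24R2) and was called without scaling, at 0.52. FANCL and FANCM turned to 0.09 and 0.06 without scaling, so that no direction is given for them. The FANCG to FANCA ratio of FPKM within a library had a median of 1.65 in T24 (1.39 to 1.97) and of 0.77 in T24R2 (0.68 to 0.78). ZNF276 covers 23.6% of the FANCA exon bases and VRK2 18.7% of those of FANCL from the opposite strand. ZNF276 rose with FANCA, at 0.55, and had a mean of 669 counts per library against 1138 for FANCA. VRK2 was at 0.03.

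The ID complex, the substrate of the core complex, did not move as 1 unit. FANCI had 146, 147, 151, 142 and 142 CPM in T24 and 101, 93.1, 107, 93.0 and 97.5 CPM in T24R2 and fell at -0.57 (SE 0.05, adjusted p = 2.4e-13, edgeR). FANCD2 had 43.1, 46.1, 45.5, 39.04 and 45.9 CPM in T24 and 51.2, 56.6, 61.7, 53.3 and 56.9 CPM in T24R2. The FANCD2 libraries stood apart in the upward direction, at 0.35 (SE 0.07, adjusted p = 1.2e-05, edgeR), under the minimum of 0.5. FANCI was no longer called without scaling (-0.41) or under upper-quartile scaling (-0.495), and without scaling FANCD2 was called at 0.51. The FANCI to FANCD2 ratio of FPKM, which no scaling touches, had a median of 3.32 in T24 (3.09 to 3.65) and of 1.74 in T24R2 (1.65 to 1.97). The gene pairs of the ratios were chosen after their values were seen, and FANCD2 has pseudogene copies that can take reads from it. Among further pairs, the ratios of RAD51C to XRCC3, CHEK1 to ATR and CHEK2 to ATM overlapped between the lines. Those of FANCB to FANCL and XRCC2 to RAD51D did not.

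Among the BRCA complexes 1 of 5 genes was called. PALB2, which joins BRCA1 to BRCA2, had 19.4, 21.2, 16.0, 18.7 and 22.3 CPM in T24 and 25.8, 28.2, 29.4, 32.3 and 31.2 CPM in T24R2, a rise of 0.59 on the log2 scale (SE 0.09, adjusted p = 3.6e-07, edgeR). PALB2 was called under every scaling and without each library in turn. BRCA2, which acts at the strand exchange step, had 16.8, 17.7, 20.4, 21.1 and 18.1 CPM in T24 and 13.1, 14.7, 13.8, 13.4 and 11.9 CPM in T24R2. Every T24R2 library of BRCA2 was under every T24 library, at a log2 fold change of -0.49 (SE 0.10, adjusted p = 5.8e-05, edgeR), and the value passed the minimum without T24 replicate 1 (-0.53), 2 (-0.52) or 5 (-0.51) or T24R2 replicate 2 (-0.52). BRCA1, the ubiquitin ligase of the complex, had 49.5, 55.7, 54.2, 53.7 and 48.0 CPM in T24 and 54.2, 58.5, 61.6, 58.5 and 56.2 CPM in T24R2, with overlapping libraries. The log2 fold change of BRCA1 was 0.15 (SE 0.06) and that of its partner BARD1 0.05 (SE 0.09), while BRIP1, the helicase that binds BRCA1, was at 0.28 (SE 0.08). The BARD1 to BRCA1 ratio of FPKM overlapped between the lines, with medians of 0.60 in T24 and 0.55 in T24R2, whereas that of PALB2 to BRCA2 went from 3.11 (2.11 to 3.30) to 5.72 (5.15 to 7.05).

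Of 9 paralogs and factors of strand exchange, 2 rose, 2 fell and 5 were not called. XRCC2, a paralog that acts in strand exchange, had 18.3, 16.3, 17.9, 20.4 and 15.1 CPM in T24 and 26.6, 34.9, 36.3, 33.3 and 30.1 CPM in T24R2. At 0.87 (SE 0.09, adjusted p = 1.1e-10, edgeR) XRCC2 had the highest log2 fold change of the 38 genes. RAD51C, a paralog that works with XRCC2 and with XRCC3, had 21.6, 16.2, 19.3, 19.3 and 19.9 CPM in T24 and 22.9, 27.0, 30.8, 31.9 and 28.3 CPM in T24R2 (log2 fold change 0.55, SE 0.10, adjusted p = 2.4e-06, edgeR). The RAD51C libraries came close, with 21.6 CPM as the highest in T24 and 22.9 CPM as the lowest in T24R2, and without T24 replicate 2 the log2 fold change was 0.49.

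RAD54L, a translocase of strand exchange, had 49.1, 49.97, 49.9, 40.1 and 47.7 CPM in T24 and 31.8, 25.9, 30.6, 32.7 and 27.2 CPM in T24R2. RAD54L fell at -0.68 (SE 0.08, adjusted p = 3.9e-10, edgeR), and 19.9% of its exon bases are overlapped by LRRC41 on the opposite strand. Its relative RAD54B had 7.68, 9.26, 10.2, 7.21 and 6.05 CPM in T24 and 3.49, 2.86, 2.78, 3.30 and 2.85 CPM in T24R2 (log2 fold change -1.39, SE 0.18, adjusted p = 7.3e-09, edgeR). The RAD54B value is uncertain, because 66.0% of its exon bases are shared with FSBP on the same strand, where fragments can fall to neither gene, and it rests on 29 to 38 counts per T24R2 library. The genes not called were RAD52 at 0.32, RAD51D at 0.23, XRCC3 at -0.05, the helicase BLM at -0.11 and RAD51AP1 at -0.15. XRCC3, BLM and RAD51AP1 turned sign without scaling, and 76.7% of the XRCC3 exon bases are overlapped by KLC1 from the opposite strand.

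None of the 4 genes of break sensing and end resection was called by edgeR, DESeq2 or limma-voom at the fold change minimum, while 2 of them, MRE11 and NBN, had a p under 0.05 in edgeR's test, before as well as after adjustment. MRE11, the nuclease of the break sensor, was nearest, with 78.4 to 91.2 CPM in T24 and 57.2 to 70.7 CPM in T24R2 and no overlap, at -0.44 (SE 0.06, adjusted p = 2e-08, edgeR). Its partners RAD50 and NBN were at 0.08 (SE 0.14) and 0.14 (SE 0.06), and the resection factor RBBP8 at 0.14 (SE 0.07), all with overlapping libraries. RAD50 had only 73 to 122 counts per library; a read-through gene covers 76.9% of its exon bases on the same strand, and fragments of shared exons can be left unassigned.

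SLFN11 was among the most abundant of the 38 genes in both lines and did not pass the test. Its libraries had 102, 96.2, 88.1, 101 and 98.6 CPM in T24 and 89.5, 102, 101, 103 and 102 CPM in T24R2. The log2 fold change was 0.03 (SE 0.05, adjusted p = 0.6, edgeR), between -0.01 and 0.07 when each library was left out, and an exact two-sided permutation test of the 5 against 5 libraries gave p = 0.48. The SLFN11 values rest on scaling for library composition. Without it the median log2 fold change of all tested genes moved from 0.01 to 0.18. Any gene whose libraries do not overlap between the lines, called or not, gets the smallest p that this exact permutation test can give, 0.00794. That held for 24 of the 38 genes, all called genes among them, against 61.2% of all tested genes, so this p adds nothing to the calls. Of the Schlafen genes near SLFN11 on chromosome 17, SLFN12 rose at 1.16 (SE 0.10), SLFN5 was at -0.01 and SLFN13 at -0.20, and SLFN14 had too few counts to be tested. SLFN12L never exceeded 3 counts in a T24 library and was at least 12.96-fold higher in T24R2, against a floor of 3 counts per library.

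**Figure D2:**
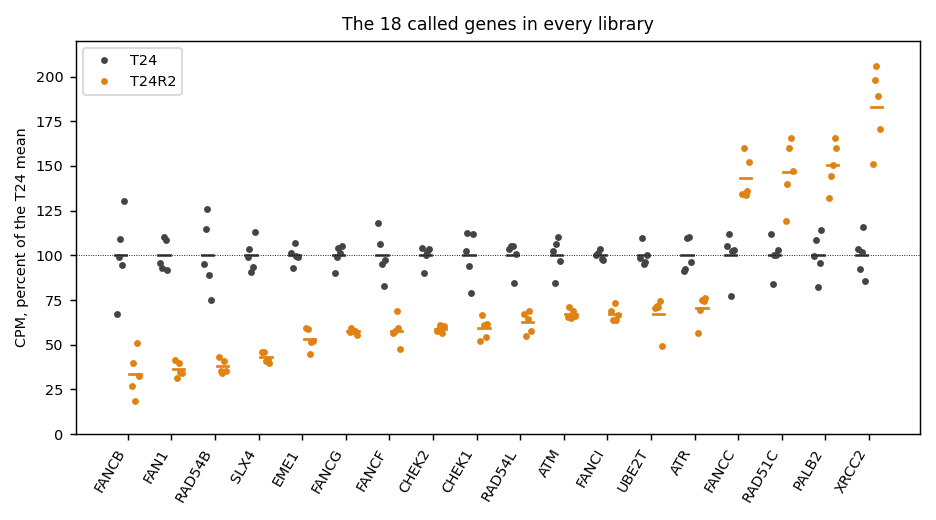
CPM of the 18 called genes in each of the 5 libraries per line, as a percent of the gene's T24 mean, ordered by fold change; points are libraries, short bars are means and the dotted line is the T24 mean. No called gene has overlapping libraries, and XRCC2 reaches the highest percent and FANCB the lowest.

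Compared per exon length, UBE2T had the highest level of the 38 genes in both lines, at 26.2 ± 1.54 FPKM (SD, n = 5) in T24 and 17.7 ± 2.65 FPKM in T24R2. In T24 it was followed by EME1 at 19.1 ± 0.96 FPKM, FANCG at 16.7 ± 1.00 FPKM and SLFN11 at 16.2 ± 0.93 FPKM, of which FANCG and SLFN11 differed by less than their spread. In T24R2 the next gene after UBE2T was SLFN11 at 16.6 ± 0.93 FPKM, within the spread of UBE2T, then MUS81 at 14.6 ± 1.01 FPKM, and EME1 was eighth at 10.2 ± 1.14 FPKM. The lowest levels in T24R2 were those of FAN1 at 0.39 ± 0.04 FPKM, RAD54B at 0.57 ± 0.06 FPKM and FANCB at 0.74 ± 0.27 FPKM. The lowest levels in T24 were those of RAD50 at 0.94 ± 0.19 FPKM and FAN1 at 1.08 ± 0.10 FPKM, which differed by less than their spread. Exons of another gene on the same strand share 76.9% of the RAD50 and 66.0% of the RAD54B exon bases. Fragments there can be left unassigned while FPKM divides by the whole exon length, so the low ranks of RAD50 and RAD54B are uncertain.

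**Figure D3:**
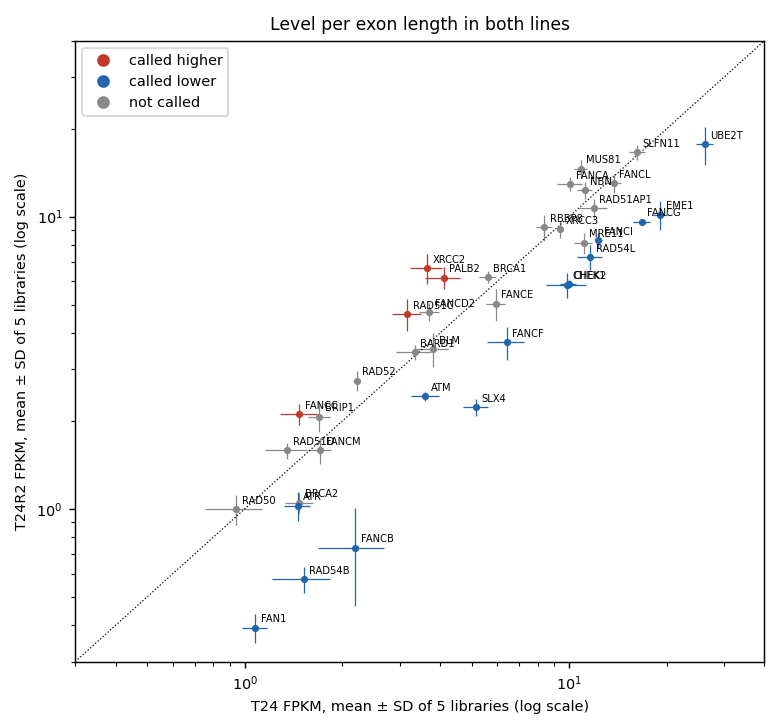
Mean FPKM of each of the 38 genes in T24 and T24R2 on log axes, with bars for the SD of 5 libraries; the dotted diagonal is equal level. UBE2T is at the upper right end, FAN1, RAD54B and FANCB are at the lower left under the diagonal, and SLFN11 lies on it. The levels of RAD50 and RAD54B are uncertain because most of their exon bases are shared with another gene on the same strand.

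Several of the called genes moved with the genes around them. The median log2 fold change of the other tested genes that start within 1 Mb was -2.01 around FAN1 (5 genes), -0.90 around ATR (13 genes), -0.87 around CHEK1 (31 genes), -0.82 around FANCF (2 genes), -0.66 around ATM (13 genes), -0.55 around FANCI (24 genes) and -0.51 around SLX4 (54 genes). The neighbours of XRCC2 had a median of 1.18 (6 genes), and those of FANCC 0.43 (9 genes). Around other called genes the median of the neighbours lay nearer 0, although some of these neighbours were called themselves. Within 1 Mb of UBE2T 7 of 28 neighbours were called higher and 8 lower, and around RAD51C 8 of 26 were higher and 0 lower. Over all tested genes 24.9% were called higher and 26.5% lower, so the counts around UBE2T are near these shares. The neighbours of FANCB had a median of -0.11, those of EME1 -0.08, those of RAD54B 0.07 and those of RAD51C 0.12. Around CHEK2, FANCG, RAD54L, UBE2T and PALB2 the medians were -0.01, -0.07, 0.02, 0.11 and -0.18. RAD51AP1 was at -0.15 amid neighbours at 1.32 (7 genes) and BRCA1 at 0.15 amid neighbours at -0.41 (55 genes). The window matters for some of these: the median was -0.53 around FANCB and -0.33 around RAD54B but only -0.22 around SLX4 within 0.5 Mb, and -0.26 around FANCI and 0.08 around FANCC within 2 Mb. Around FAN1, ATM, ATR, CHEK1, FANCF and XRCC2 the median kept its sign and a size over 0.5 at every window. FANCF had only 2 neighbours at each window. GAS2, a FANCF neighbour at -0.65, covers 9.57% of the FANCF exon bases from the opposite strand. Chromosome 11 carries ATM (chr11:108223044-108369102), CHEK1 (chr11:125625163-125676255), FANCF, MRE11 and MUS81, and 3 of these 5 genes were called lower. It had a median of -0.55 over 924 tested genes, the lowest of the 23 chromosomes compared, which were the autosomes and X.

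**Figure D4:**
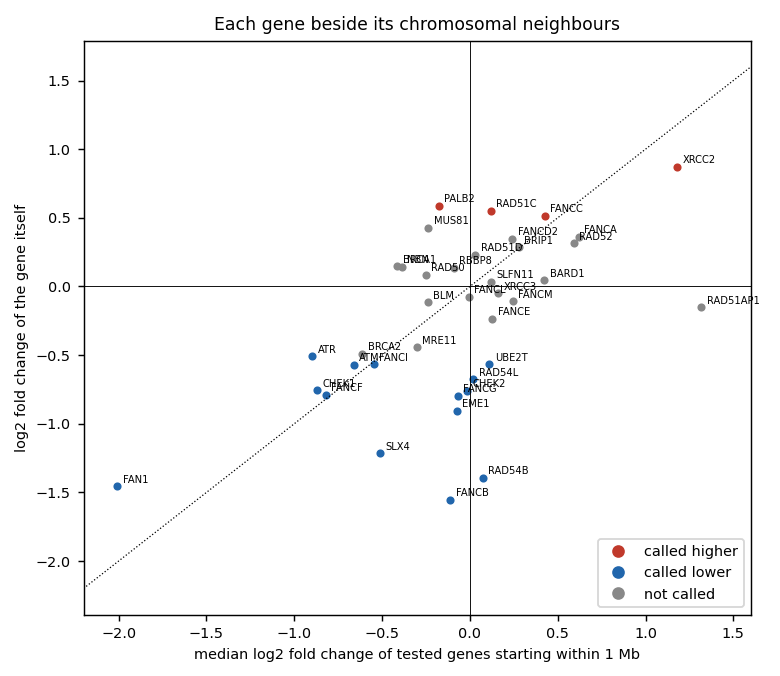
Log2 fold change of each of the 38 genes against the median log2 fold change of the other tested genes that start within 1 Mb; colours give the call and the dotted diagonal is equality. FAN1 lies at the lower left with its neighbours, XRCC2 at the upper right, and FANCB and RAD54B lie low at a neighbour median near 0.

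Other genes of crosslink repair and recombination that are not among the 38 were read from the same fit. Of 62 such partners, 59 were tested, 18 fell (30.5%) and 8 rose (13.6%), with a median of -0.19, against 26.5% lower and 24.9% higher over all tested genes. The balance depended on the scaling: without scaling 12 partners were lower and 14 higher, and under upper-quartile scaling 14 were lower and 11 higher. The falls included SFR1, a mediator of strand exchange, at -2.36, RMI2 of the BLM complex at -1.51, CENPX, which binds FANCM, at -1.46, and the G2 checkpoint kinase WEE1 at -1.08. The rises included the helicase MCM9 at 1.75, the recombination factor SWSAP1 at 1.09, UIMC1 of the BRCA1-A complex at 0.89, the repair nuclease DCLRE1B at 0.76 and WDR48, the activator of the enzyme that takes ubiquitin off FANCD2, at 0.75. SWSAP1 had 1.05 and 2.26 CPM in the lines, with overlapping libraries and 15.5% of its exon bases shared with a gene on the other strand. SLX1A, SLX1B and POLN had too few counts to be tested.

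Of 30 genes of S phase and mitosis, 13 fell (43.3%) and 3 rose (10.0%), against 26.5% lower and 24.9% higher over all tested genes. The list median was -0.47, and without scaling 12 of the 30 fell and 5 rose. The falls were led by CDK1, the mitotic kinase, at -1.74 and AURKB at -1.63, followed by the proliferation marker MKI67 at -1.21 (737 ± 27.9 to 319 ± 17.99 CPM, SD, n = 5), RRM1 at -1.19 and AURKA at -1.19. The rises were MCM7 at 1.00, CCNE1 at 0.86 and TYMS at 0.66, the last with 47.5% of its exon bases covered by another gene on the other strand. These genes moved in the same libraries as the repair genes, and their part in the repair gene values was not tested.

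Of 20 genes listed as p53 checkpoint output, 11 fell (55.0%) and 7 rose (35.0%), against 26.5% lower and 24.9% higher over all tested genes. The list median was -0.69, and a link to the values of the checkpoint kinases was not tested. CDKN1A, an inhibitor that stops the cell cycle, fell at -2.93 (97.7 ± 4.11 to 12.9 ± 1.76 CPM, SD, n = 5), followed by BTG2 at -1.88, FDXR at -1.65, the damage sensor DDB2 at -1.48 and GADD45A at -1.26. Rises were seen for the stress regulators SESN2 at 1.72 and SESN1 at 1.17, the phosphatase PPM1D at 0.89 and the repair factor XPC at 0.88. All of these values passed the edgeR test over all genes, and a gene on the other strand covers 24.6% of the XPC exon bases.

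**Figure D5:**
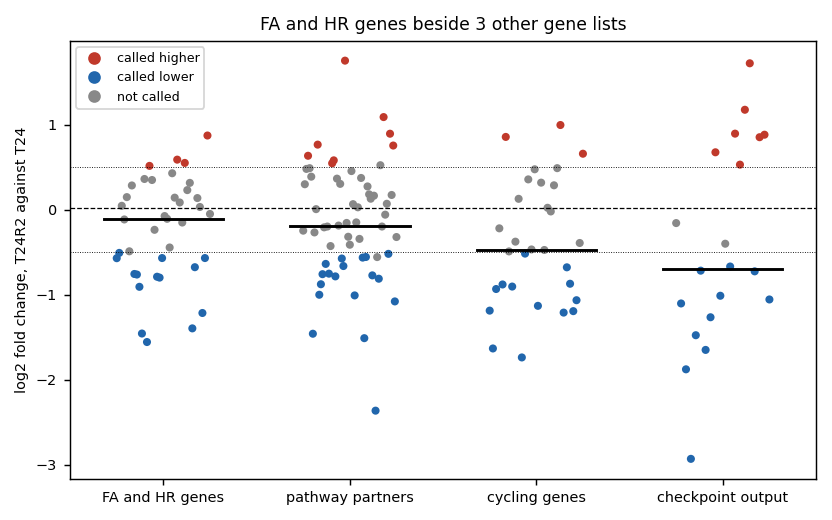
Log2 fold change of the 38 FA and homologous recombination genes beside the tested pathway partners (59), cycling genes (30) and genes of checkpoint output (20); points are genes coloured by call, black bars are list medians of -0.11, -0.19, -0.47 and -0.69, the dashed line is the median of all tested genes and the dotted lines are the fold change minimum.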

How the data were processed

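RNA-seq counts of 5 T24 and 5 T24R2 libraries were used. The authors aligned reads to hg38 with STAR 2.7.0, removed multimapping and duplicate reads (SAMtools 1.10) and ran featureCounts 2.0.1 at strand option 1 on GENCODE release 39 genes, while the kit in the labels is not described as strand-specific. The deposited values are raw counts per gene and library, neither normalized nor pooled. Of 61533 genes, 61369 were matched to a symbol, and 0 rows lacked an identifier.

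The lines were compared by edgeR 4.0.16 in R 4.3.3 (filterByExpr, TMM, glmQLFit, glmQLFTest, Benjamini-Hochberg adjustment over all 16181 tested genes), and genes were called at an adjusted p under 0.05 with more than 0.5 of log2 fold change in either direction. CPM and FPKM used TMM-scaled library sizes, and the common biological coefficient of variation was 6.61%. Floors of 3 counts per library cover counting error only. Exact two-sided permutation tests of CPM cannot go below p = 0.00794 with 5 against 5 libraries. Replicates of a line differed by more than counting noise in every pair, so each was counted as 1 library. Exon overlaps came from bedtools 2.31.1, and promoter windows from RefSeq. Other steps used Python 3.11.15, numpy 2.4.6, pandas 2.3.3, SciPy 1.17.1 and matplotlib 3.10.9. The steps were run on simulated counts with 196 of 15580 genes changed, and edgeR called 188 of these and 1 unchanged gene. In the data 51.4% of tested genes were called, so this simulation cannot show how the calls depend on scaling.

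The 38 genes and the other lists were chosen with earlier results of these data known. Values per library are given for every called gene of the 38 and for SLFN11, UBE2T, ATM, ATR, CHEK1, CHEK2, BRCA1, BRCA2, FANCD2 and FANCI. Of each other list, up to 5 called rises and 5 called falls with a mean of at least 1 CPM are named, and CDKN1A and MKI67; the results of some genes that this rule covers are not reported here. SLFN5, SLFN13 and the genes that overlap or neighbour others were named after their values were seen. Alternatives were other scalings, limma-voom 3.58.1, DESeq2 1.42.0 (unshrunken, or shrunken by its normal prior or by apeglm 1.24.0), other count filters and thresholds, removal of mitochondrial and of overlapped genes, a replicate block and leaving out each library.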

Additional observations from a re-analysis of the deposited data

Results flagged for a closer look

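Among 76 sets of 5 libraries, 1 for each of the 38 genes in each line, 7 held a library farther from the others than Dixon's 95% critical value allows, and about 3.8 would be flagged by chance at 1 in 20. In T24, FANCC was low in replicate 3 (14.6 CPM, the others 19.4 to 21.2), RAD54L in replicate 4 (40.1 CPM, the others 47.7 to 49.97), RAD51AP1 in replicate 1 (25.2 CPM, the others 31.4 to 32.3) and CHEK2 in replicate 2 (40.4 CPM, the others 44.8 to 46.5). In T24R2, UBE2T was low in replicate 5 (21.4 CPM, the others 30.7 to 32.2), SLFN11 was low in replicate 1 (89.5 CPM, the others 101 to 103), and XRCC3 was high in replicate 1 (75.6 CPM, the others 65.0 to 67.1). The 4 low T24 values come from 4 different libraries. FANCC and UBE2T lost their calls without the library named here, at 0.43 and -0.47, and RAD54L and CHEK2 kept theirs.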

How the results depend on the processing

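The calls of 4 higher and 14 lower among the 38 genes were the same genes under DESeq2, limma-voom and the replicate block. Without scaling, 7 of the 38 genes, 14 partners (12 lower) and 5 cycling genes were called higher and the median of the 38 was 0.052; under upper-quartile scaling it was -0.037. With a mean of at least 100 counts, 10686 genes were tested and 4991 called (2350 higher, 2641 lower). In this setting 1 Schlafen gene and 4 of the 38 rose, 11 of the 38 fell and the median was -0.061. FANCB and RAD54B were removed by this filter, and ATR lost its call at -0.48. With no fold change minimum, 6128 of all genes and 12 of the 38 were higher; with a minimum of 1, 4211 were called (1918 higher, 2293 lower), and of the 38 genes 0 were higher and 4 lower. Signs turned without scaling for FANCL (0.088), FANCM (0.057), XRCC3 (0.113), RAD51AP1 (0.013) and BLM (0.048), for XRCC3 under upper-quartile scaling (0.024), for BARD1 without T24 replicate 1 and for SLFN11 without T24 replicate 3, whose values with each library left out ran from -0.028 to 0.083 and from -0.0061 to 0.072. The cause was not tested. Of the 38 genes, 2 higher (PALB2, XRCC2) and 10 lower ones (FANCB, FANCF, FANCG, SLX4, EME1, FAN1, RAD54L, RAD54B, CHEK1, CHEK2) were called under every scaling and without each library in turn. Without genes overlapped on more than 10% of exon bases from the opposite strand, EME1, RAD54L and CHEK1 leave, and 4 higher and 11 lower remain.

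The replicate numbers did not pair the libraries: correlations of deviations between same-numbered libraries were -0.02 to 0.02. With the number as a block, 8240 genes were called (3979 higher, 4261 lower), and 4 higher and 14 lower of the 38. FANCB, RAD54B and RAD50, with the fewest counts, have the widest errors.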
